A study of Mus musculus with 6 samples.

Results

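The genes described here are 10 chemokine genes expressed in the liver, namely Cxcl1, Cxcl9, Cxcl10, Cxcl12, Cxcl16, Ccl2, Ccl5, Ccl6, Ccl9 and Cx3cl1. They were taken by symbol from the 23284 genes of the count tables, and all 10 were listed there. Total liver RNA of 6 C57BL/6 mice aged 8 weeks was sequenced, with 1 library per mouse. All mice were fasted overnight and the fast continued during treatment. The vehicle group of 3 mice received vehicle, and the FGF19 group of 3 mice received FGF19 at 1 mg/kg for 6 h. FGF19 is the human counterpart of the mouse gut hormone FGF15, so the ligand was human and its receptors were those of the mouse. No group received another protein. The livers were analysed whole, so that fewer cells of a type and less RNA per cell cannot be told apart. The comparison asked which chemokine transcripts differed between the FGF19-treated and the vehicle-treated livers.

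Chemokines are small secreted proteins that guide leukocytes through receptors of the G-protein-coupled family. They are named by the spacing of their first cysteines as CC, CXC or CX3C chemokines. Many are held on heparan sulphate of the vessel wall, which in the liver is the wall of the sinusoids, and they are made there by endothelial cells, Kupffer cells, stellate cells and hepatocytes. Some, such as CXCL12, are made constitutively, and others are induced. CXCL9 and CXCL10 are classical products of interferon signalling, and CXCL1 and CCL2 are classical targets of NF-kappaB.

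Of the 10 genes, Cxcl9, Ccl5 and Ccl9 rose after FGF19 treatment, Cxcl12 fell, and Cxcl1, Cxcl10, Cxcl16, Ccl6 and Cx3cl1 did not pass the test. Ccl2 was near the detection limit and was not tested. The rises differed widely in size. Cxcl9 was 39.9-fold and Ccl5 19.3-fold higher, whereas Ccl9 was 1.64-fold higher and Cxcl12 was at 0.738 of its vehicle level. In Cxcl9, Ccl5, Ccl9 and Cxcl16 every FGF19-treated mouse was above every vehicle-treated mouse, and in Cxcl12 every FGF19-treated mouse was below.

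**Figure D1:**
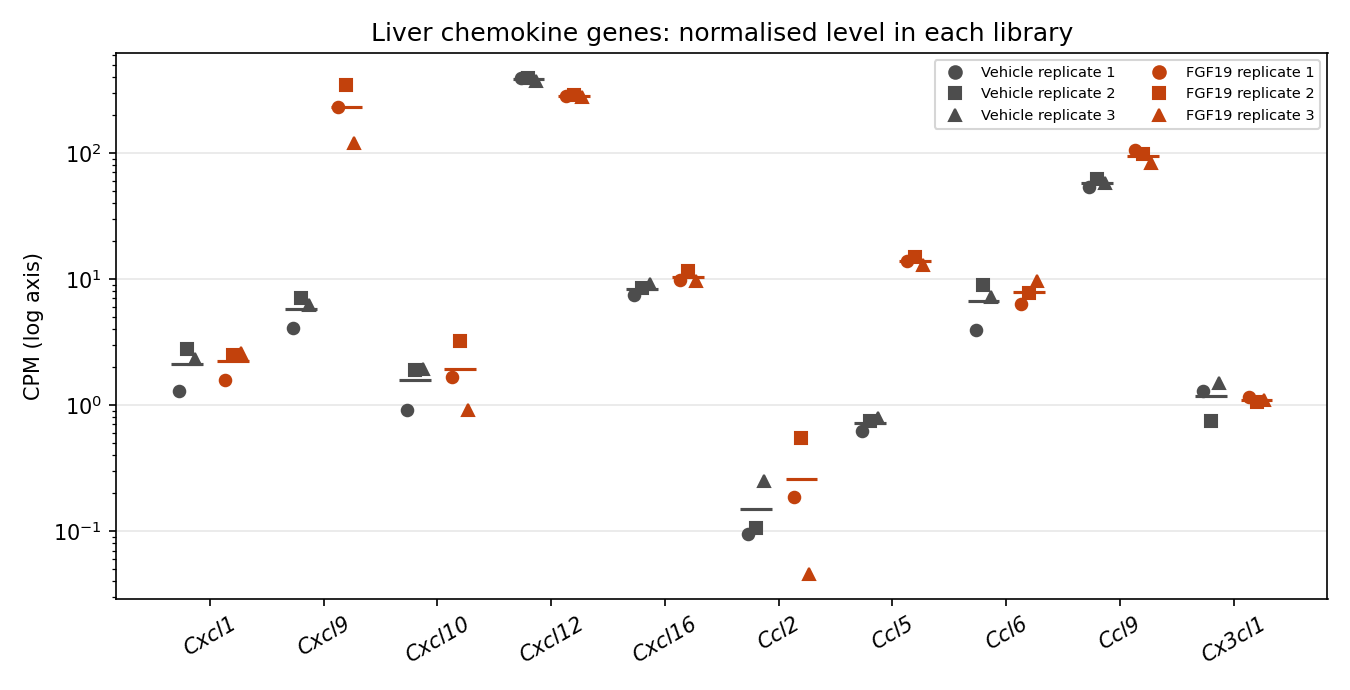
Normalised level of each of the 10 chemokine genes in CPM (log axis, counts scaled to a common library size), with vehicle-treated mice in grey, FGF19-treated mice in orange, a symbol for each replicate and a bar at the group mean. The 3 FGF19-treated libraries of Cxcl9 lie between 119 and 342 CPM and those of Ccl5 between 12.9 and 15.0 CPM, all above the vehicle-treated libraries, while those of Cxcl12 lie below them.

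Counts were compared between the groups with the quasi-likelihood test of edgeR, and p-values were adjusted over all 12559 genes that passed the filter on low counts. Among these, 4.56% were higher and 2.84% were lower at an adjusted p under 0.05. Of the 9 chemokine genes tested, 3 were higher and 1 was lower. At the unadjusted p under 0.01 that the study used, these numbers were again 3 and 1, where 6.20% of all genes were higher and 4.98% were lower. Groups that did not overlap were found with higher levels in 4 of the 9 and with lower levels in 1, against 14.5% and 13.8% of all genes. The median log2 fold change of the 9 genes was 0.29, and that of all genes tested was -0.00076. The members were chosen with earlier results of these data known, so an excess over all genes may be partly built in. With 3 mice a group, an exact permutation test of a single value cannot give a two-sided p below 0.1.

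**Figure D2:**
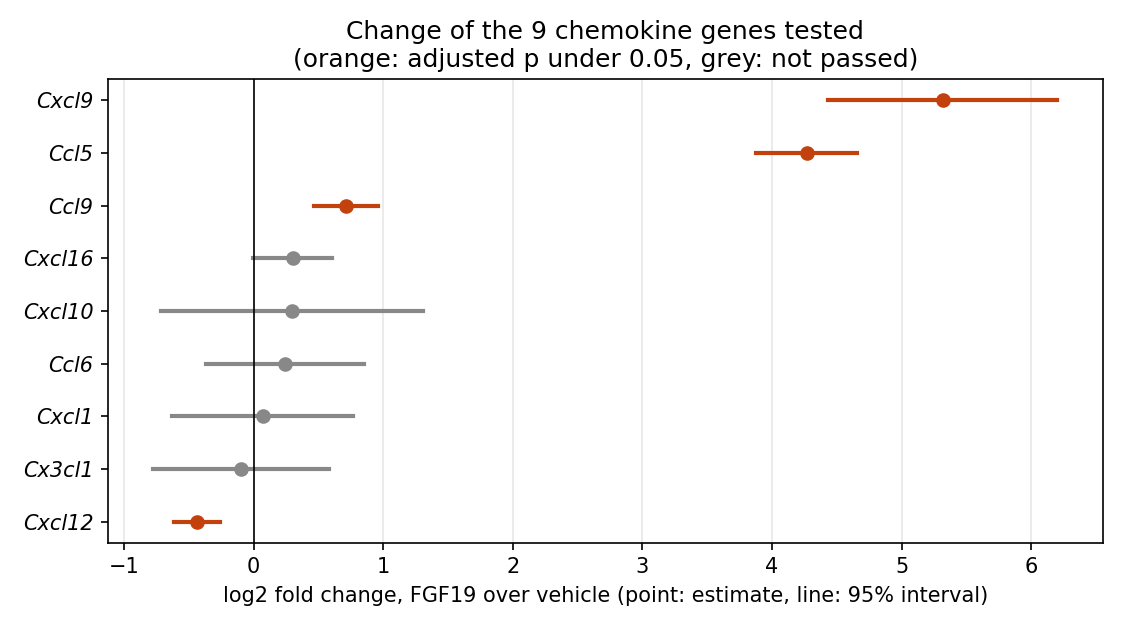
Log2 fold change of FGF19 over vehicle for the 9 chemokine genes tested, with its 95% interval from the edgeR fit. The estimate of Cxcl9 is 5.32 and that of Ccl5 is 4.27, that of Ccl9 is 0.71 and that of Cxcl12 is -0.44, and the intervals of the 5 grey genes include 0.

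Total counts ranged from 18994654 to 22920056 a library. An observed 0 leaves room for as many as 3 counts, which is 0.131 to 0.158 CPM depending on the library, and since the reads carry no molecular identifiers this covers counting error only. The tissue matched its label, since the 6 hepatocyte genes examined summed to between 87400 and 98900 CPM in every library. No pair of libraries within a group agreed within counting noise (chi-square per degree of freedom between 8.25 and 39.4), so none was treated as a repeat deposit of another.

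Promoter windows of Cxcl9, Cxcl10, Ccl9 and Cxcl12 are shown because Cxcl9 and Cxcl10 are neighbours that share a receptor and of this pair Cxcl9 alone passed the test, and because Ccl9 and Cxcl12 passed it in opposite directions. The windows run from 250 bases before to 50 bases after the start of transcription, 5′ to 3′ on the strand of the gene, as given by RefSeq for GRCm38.p6, which is not the build of the counts. Their positions are chr5:92328030-92328329, minus strand for Cxcl9, chr5:92348840-92349139, minus strand for Cxcl10, chr11:83578587-83578886, minus strand for Ccl9 and chr6:117168285-117168584, plus strand for Cxcl12. Capitals mark matches to a kappaB-like motif or to the core of an interferon-stimulated response element (ISRE).

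Cxcl9: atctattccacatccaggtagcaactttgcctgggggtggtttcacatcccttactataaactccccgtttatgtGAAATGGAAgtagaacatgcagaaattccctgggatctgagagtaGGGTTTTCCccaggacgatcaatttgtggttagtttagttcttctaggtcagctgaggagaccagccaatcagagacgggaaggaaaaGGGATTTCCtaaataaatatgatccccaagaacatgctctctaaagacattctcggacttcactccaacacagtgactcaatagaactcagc
Cxcl10: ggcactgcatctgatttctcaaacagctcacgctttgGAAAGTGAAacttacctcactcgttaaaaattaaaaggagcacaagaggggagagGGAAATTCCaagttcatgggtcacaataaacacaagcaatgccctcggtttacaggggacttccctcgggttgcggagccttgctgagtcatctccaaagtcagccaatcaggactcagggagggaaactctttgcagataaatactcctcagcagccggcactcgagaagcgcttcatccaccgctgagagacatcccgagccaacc
Ccl9: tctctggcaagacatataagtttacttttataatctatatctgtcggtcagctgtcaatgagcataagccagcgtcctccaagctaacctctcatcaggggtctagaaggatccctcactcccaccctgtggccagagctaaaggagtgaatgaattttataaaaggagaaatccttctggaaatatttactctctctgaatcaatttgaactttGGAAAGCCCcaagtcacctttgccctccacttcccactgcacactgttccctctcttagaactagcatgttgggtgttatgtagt
Cxcl12: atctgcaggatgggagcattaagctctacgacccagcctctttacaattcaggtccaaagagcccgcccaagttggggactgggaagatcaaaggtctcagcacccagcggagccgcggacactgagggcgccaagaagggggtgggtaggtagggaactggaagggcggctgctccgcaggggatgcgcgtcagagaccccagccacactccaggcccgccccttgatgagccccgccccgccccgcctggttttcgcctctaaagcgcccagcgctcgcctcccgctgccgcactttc

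The kappaB-like motif, bound by NF-kappaB proteins, was searched as GGNNTTTCC on both strands. It was present in 5.8% of all 32851 windows of this length. The ISRE core, bound by interferon regulatory factors, was searched as GAAANNGAA on both strands and was present in 8.6%. The gamma-activated site, an interferon-response motif, was searched as TTCNNNGAA, which is its own reverse complement, and was present in 8.3%. The window of Cxcl9 held 2 kappaB-like matches, GGGTTTTCC and GGGATTTCC, and 1 ISRE core match, GAAATGGAA. None of these matches overlapped. The window of Cxcl10 held 1 kappaB-like match, GGAAATTCC on the opposite strand, and 1 ISRE core match, GAAAGTGAA. The window of Ccl9 held 1 kappaB-like match, GGAAAGCCC on the opposite strand, and that of Cxcl12 held no match. Windows were listed for 7 of the 10 genes, which leaves out Cxcl16, Ccl2 and Ccl5. Among the 3 not printed, that of Cxcl1 held 2 kappaB-like matches and those of Ccl6 and Cx3cl1 held none of the motifs. No window held a match to TTCNNNGAA, and other forms of the gamma-activated site were not searched. A match describes the letters in the window and not a bound site. Cxcl9, which rose, and Cxcl10, which did not pass the test, both held kappaB-like and ISRE core matches.

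CXCL9 and CXCL10 attract activated T cells and NK cells through the receptor CXCR3. Cxcl9 lies at chr5:92750357-92757105 of mm9 on the minus strand and has 4 exons. Its read counts were 86, 134 and 125 in vehicle replicates 1, 2 and 3, and 4969, 7455 and 2631 in FGF19 replicates 1, 2 and 3. The lowest FGF19-treated library was thus far above the highest vehicle-treated library. The FGF19-treated mice also differed among themselves, with replicate 3 lowest and replicate 2 highest. On the CPM scale the level was 5.80 ± 1.54 (mean ± SD, n = 3) with vehicle and 230.8 ± 112 (mean ± SD, n = 3) with FGF19. The log2 fold change was 5.32 with a standard error of 0.39 and an adjusted p of 0.000126 in the edgeR test. When each of the 6 libraries was left out in turn it ranged from 4.93 to 5.64 and passed every time.

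Cxcl10 lies 18.6 kb from Cxcl9, at chr5:92775665-92777915 on the minus strand, and it also has 4 exons. Its counts were 19, 36 and 39 in the vehicle-treated and 36, 70 and 20 in the FGF19-treated mice. The groups overlapped, with FGF19 replicate 3 at the level of the lowest vehicle-treated mouse and FGF19 replicate 2 alone above every vehicle-treated mouse. The level was 1.58 ± 0.587 CPM (mean ± SD, n = 3) with vehicle and 1.93 ± 1.18 CPM (mean ± SD, n = 3) with FGF19. The log2 fold change of Cxcl10 was 0.29, with a 95% interval from -0.72 to 1.30 and an adjusted p of 0.758 in edgeR. The interval is wide, but its upper bound lies below the lower bound of 4.44 for Cxcl9. The third ligand of CXCR3 in the same gene cluster, Cxcl11, lies 10.7 kb beyond Cxcl10. Its counts were 36, 27 and 23 with vehicle and 27, 22 and 49 with FGF19, which overlap.

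The divergence of these neighbours was examined within each library as the ratio of their levels per kilobase of exon, a pair chosen after the values were seen. The ratio of Cxcl9 to Cxcl10 was 1.71, 1.41 and 1.21 in the vehicle-treated mice. In the FGF19-treated mice it was 52.3, 40.3 and 49.8. The mean log2 ratio was higher by 5.04 with FGF19 (two-sided exact permutation p = 0.1, the smallest that 3 against 3 allows). Within the FGF19 group the level of Cxcl9 itself varied from 119 to 342 CPM, while its ratio to Cxcl10 varied from 40.3 to 52.3. Its ratio to Cxcl11 varied more, at 102, 187 and 29.7 in FGF19 replicates 1, 2 and 3, and was 1.32, 2.74 and 3.00 with vehicle (two-sided exact permutation p = 0.1). The separation of both ratios follows from the levels already given, and these tests add no evidence. Of the treated mice, FGF19 replicate 3 had the lowest level of both Cxcl9 and Cxcl10 and FGF19 replicate 2 the highest.

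CXCL1 is a neutrophil attractant that acts through CXCR2. Cxcl1 lies at chr5:91320271-91322141 on the plus strand with 4 exons. It was counted 27, 52 and 47 times with vehicle and 34, 54 and 57 times with FGF19. Vehicle replicate 1 and FGF19 replicate 1 were the lowest of their groups, and the groups overlapped. The level was 2.12 ± 0.756 CPM (mean ± SD, n = 3) and 2.21 ± 0.550 CPM (mean ± SD, n = 3), and the log2 fold change was 0.07 with a 95% interval from -0.63 to 0.76 (adjusted p = 0.923, edgeR). Changes of the size seen in Cxcl9 or Ccl5 lie outside this interval, and a change of the size seen in Ccl9, 0.71, lies inside it. Its close relatives Cxcl2, with at most 5 counts in any library, Cxcl3, with 0 in all 6, and Cxcl5, with at most 1, were not tested.

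CXCL12 is a constitutive chemokine of stromal, endothelial and stellate cells that binds CXCR4 and the atypical receptor ACKR3, and it retains haematopoietic cells in their niches. Cxcl12 lies at chr6:117118553-117131386 on the plus strand, with 4 merged exons. It had by far the most counts of the 10 genes in the vehicle-treated livers, 8244, 7381 and 7414, against 6116, 6243 and 6154 with FGF19. The spread within each group was small and the groups were apart. The level fell from 384 ± 13.8 CPM (mean ± SD, n = 3) to 283 ± 4.26 CPM (mean ± SD, n = 3). The log2 fold change was -0.44 with a standard error of 0.08 (adjusted p = 0.0115, edgeR). The call was lost without FGF19 replicate 1 (adjusted p = 0.0588) and without FGF19 replicate 2 (adjusted p = 0.0549), where adjusted p over all alternatives was between 0.000121 and 0.0588 and the log2 fold change stayed between -0.47 and -0.42. Markers of the cells that make CXCL12 are given beside this change: the summed level of 8 sinusoidal endothelial markers was between 323 and 349 CPM with vehicle and between 320 and 336 CPM with FGF19, and that of 7 stellate cell markers between 217 and 294 CPM and between 203 and 249 CPM. Of the stellate cell markers, 1 was lower at an adjusted p under 0.05 in edgeR, Colec11, a collectin gene, with a log2 fold change of -0.75. At an unadjusted p under 0.05, 0 sinusoidal endothelial markers were higher and 1 was lower, and 1 stellate cell marker was higher and 2 were lower. Single markers, named after their values were seen, had fold changes close to that of Cxcl12 with groups that did not overlap. These were -0.38 on the log2 scale for the sinusoidal marker Clec4g and -0.46 for the stellate marker Reln (adjusted p of 0.0736 and 0.0984 in edgeR). Others went up, among them the sinusoidal marker Lyve1 at 0.20 and the stellate marker Lrat at 0.33 (adjusted p of 0.386 and 0.206 in edgeR). Of the 8 sinusoidal markers 4 had positive and 4 had negative log2 fold changes, and of the 7 stellate markers 3 and 4. None of these markers was at 0, and their part in the change of Cxcl12 was not tested.

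CXCL16 and CX3CL1 are made as transmembrane proteins with the chemokine domain on a stalk, from which the proteases ADAM10 and ADAM17 release it. CXCL16 binds CXCR6, a receptor of liver-resident T and NKT cells, and CX3CL1 binds CX3CR1 on monocytes. Cxcl16, at chr11:70267736-70273486 on the minus strand, was counted 157, 160 and 183 times with vehicle and 209, 250 and 213 times with FGF19. Every FGF19-treated mouse was above every vehicle-treated mouse, by a small margin. The level was 8.34 ± 0.809 CPM (mean ± SD, n = 3) and 10.3 ± 1.04 CPM (mean ± SD, n = 3), with a log2 fold change of 0.30, a 95% interval from -0.0043 to 0.61 and an adjusted p of 0.225 in edgeR. Of its exon bases, 363 of 2448 are shared with Zmynd15, and because strand was not used in counting, its counts are uncertain. Cx3cl1, at chr8:97296080-97306326 on the plus strand, had 27, 14 and 30 counts with vehicle and 25, 23 and 24 with FGF19. The FGF19-treated mice lay within the range of the vehicle-treated mice. Its log2 fold change was -0.10 with a 95% interval from -0.78 to 0.58 (adjusted p = 0.887, edgeR). The shedding proteases had levels of 24.1 ± 2.10 and 26.3 ± 4.57 CPM (mean ± SD, n = 3) for Adam10 and of 14.6 ± 1.59 and 16.5 ± 1.10 CPM (mean ± SD, n = 3) for Adam17 with vehicle and FGF19, and neither passed the test.

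CCL5, also known as RANTES, attracts T cells, NK cells and monocytes through several receptors, among them CCR1 and CCR3. Ccl5 lies at chr11:83339281-83344020 of mm9 on the minus strand, with 3 exons that together measure 531 bases, the shortest of the 10 genes. Its counts were 13, 14 and 16 in the vehicle-treated mice and 297, 327 and 285 in the FGF19-treated mice. Both groups were tight and far apart. The level was 0.718 ± 0.0896 CPM (mean ± SD, n = 3) with vehicle and 13.9 ± 1.07 CPM (mean ± SD, n = 3) with FGF19. The log2 fold change of Ccl5 was 4.27 with a standard error of 0.17 and an adjusted p of 2.09e-06 in edgeR. With single libraries left out it ranged from 4.17 to 4.35 and passed in all 6 fits. Because its vehicle level was below 1 CPM, Ccl5 was not tested under the filter that asks for at least 1 CPM in every library.

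Ccl9 and Ccl6 lie on the same strand as Ccl5 in a cluster of CC chemokine genes on chromosome 11. CCL9 and CCL6 are rodent chemokines of myeloid cells that bind CCR1. Ccl9, at chr11:83386419-83392138, is separated from Ccl5 by 42.4 kb. It was counted 1116, 1179 and 1158 times with vehicle and 2243, 2109 and 1822 times with FGF19. The groups did not overlap, and FGF19 replicate 3 was the lowest of the treated mice. The level rose from 57.7 ± 4.65 CPM (mean ± SD, n = 3) to 94.5 ± 11.1 CPM (mean ± SD, n = 3). The log2 fold change was 0.71 with a standard error of 0.11 (adjusted p = 0.00504, edgeR), and it was between 0.64 and 0.81 with each library left out.

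Ccl6 lies 9.2 kb from Ccl9, at chr11:83401388-83406589. Its counts were 83, 169 and 145 with vehicle and 136, 168 and 212 with FGF19. The groups overlapped, and vehicle replicate 1 was the lowest of the 6 libraries. The level was 6.70 ± 2.54 CPM (mean ± SD, n = 3) and 7.88 ± 1.64 CPM (mean ± SD, n = 3), with a log2 fold change of 0.24 and a 95% interval from -0.37 to 0.85 (adjusted p = 0.662, edgeR). The ratio of Ccl9 to Ccl6 per kilobase was 6.42, 3.33 and 3.81 with vehicle and 7.87, 5.99 and 4.10 with FGF19, which did not separate the groups (two-sided exact permutation p = 0.3). The ratio of Ccl5 to Ccl9 was 0.0660, 0.0673 and 0.0783 with vehicle and 0.750, 0.878 and 0.886 with FGF19 (two-sided exact permutation p = 0.1). With Ccl5 19.3-fold and Ccl9 1.64-fold higher, this separation follows from the levels already given, and the test adds no evidence. Further along the cluster, Ccl3 had at most 2 counts in any library and Ccl4 at most 4.

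CCL2 recruits monocytes that carry CCR2. Ccl2, at chr11:81849079-81850954 on the plus strand, was counted 2, 2 and 5 times with vehicle and 4, 12 and 1 times with FGF19. Vehicle replicates 1 and 2 and FGF19 replicate 3 were at or under 3 counts, the number that a count of 0 allows, and the groups overlapped. The counts summed to 9 with vehicle and 17 with FGF19, of which 12 came from FGF19 replicate 2. At these counts Ccl2 was not tested, and a small difference could not be detected. Its neighbour Ccl7, 8.3 kb away, was counted 0, 0 and 1 times with vehicle and 4, 2 and 3 times with FGF19, and it was named after its values were seen because its groups did not overlap.

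Levels of different genes were compared as RPKM, which is the CPM value divided by the exon length in kilobases. In the vehicle-treated livers the order was Cxcl12 at 53.6 ± 1.93, Ccl9 at 19.2 ± 1.55, Ccl6 at 4.67 ± 1.77, Cxcl16 at 3.41 ± 0.330, Cxcl1 at 2.24 ± 0.796, Cxcl9 at 2.00 ± 0.530, Cxcl10 at 1.44 ± 0.533, Ccl5 at 1.35 ± 0.169, Cx3cl1 at 0.373 ± 0.123 and Ccl2 at 0.186 ± 0.106 RPKM (mean ± SD, n = 3). The ranges of Ccl6 and Cxcl16 overlapped, as did those of neighbours in this order from Cxcl1 to Ccl5 and those of Cx3cl1 and Ccl2. In the FGF19-treated livers Cxcl9 was first at 79.5 ± 38.4, followed by Cxcl12 at 39.6 ± 0.594, Ccl9 at 31.4 ± 3.69 and Ccl5 at 26.2 ± 2.01 RPKM (mean ± SD, n = 3). The lowest library of Cxcl9, at 41.0 RPKM, was only just above the highest of Cxcl12, at 40.0 RPKM, and the ranges of Ccl9 and Ccl5 overlapped. The other 6 genes followed, none above 6.68 RPKM in any library.

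As shares of the summed RPKM of the 10 genes, Cxcl12 took 58.2% to 65.6% with vehicle and 17.0% to 26.6% with FGF19. Cxcl9 took 1.69% to 2.60% with vehicle and 28.1% to 50.2% with FGF19, and Ccl5 took 1.40% to 1.70% and 12.0% to 16.6%. Ccl9, whose level rose, took 21.1% to 22.1% with vehicle and 13.7% to 18.8% with FGF19. Shares are bound to a fixed sum, so a lower share is not a lower level.

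**Figure D3:**
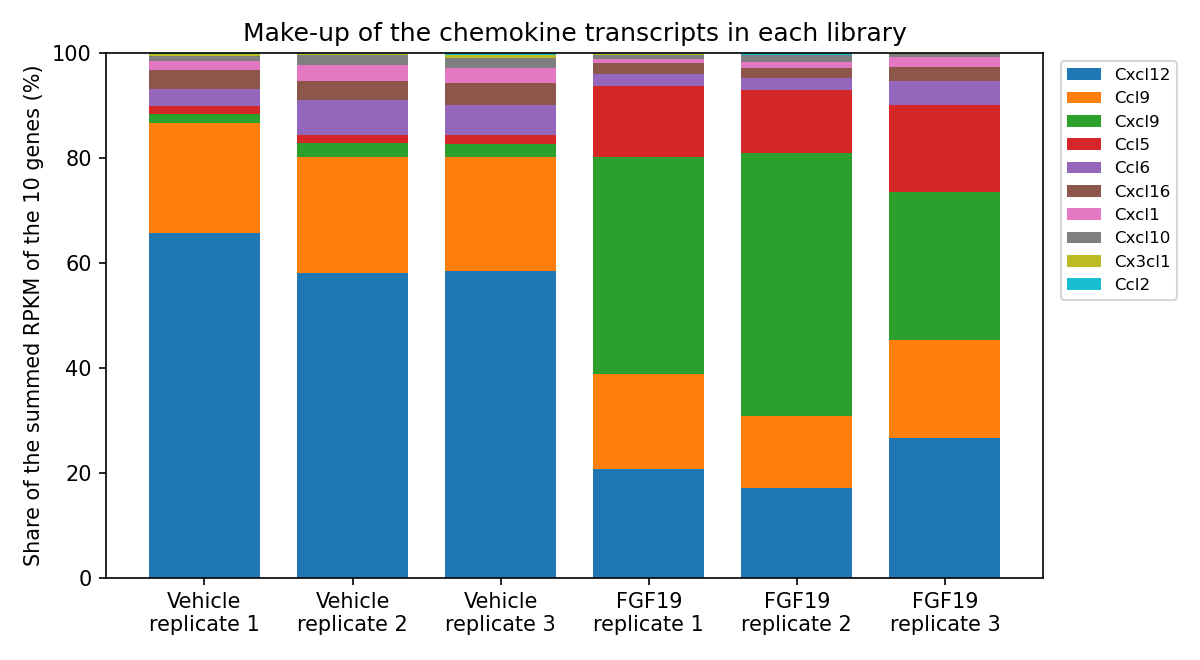
Share of each chemokine gene in the summed RPKM of the 10 genes (stacked bars, linear axis from 0 to 100%), for each of the 6 libraries. Cxcl12 and Ccl9 make up most of the bars of the vehicle-treated mice, and Cxcl9 takes between 28.1% and 50.2% of those of the FGF19-treated mice.

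The other chemokine ligands were examined as a list of 31 genes. Of these, 19 had at most 3 counts in every library and 6 were tested, of which 2 were higher and 0 were lower at an adjusted p under 0.05 in edgeR. At an unadjusted p under 0.05, 2 were higher and 1 was lower, and the likelihood ratio test and the exact test of edgeR each called 1 lower. The median log2 fold change of the 6 genes was -0.06. Cxcl13, which attracts B cells through CXCR5, was counted 83, 21 and 19 times with vehicle and 235, 208 and 226 times with FGF19. It rose with a log2 fold change of 2.33 (adjusted p = 0.00971, edgeR), and by 3.31 without vehicle replicate 1, the library with the high vehicle count. Cxcl14, a chemokine of epithelia and other tissues, was counted 16, 24 and 7 times and 42, 65 and 44 times. Its log2 fold change was 1.55 (adjusted p = 0.0437, edgeR), and the call was lost without vehicle replicate 1 or 3 and without FGF19 replicate 1 or 2 (adjusted p between 0.0867 and 0.161, where all alternatives gave between 0.00139 and 0.161). Ccl27a, at 2.96 ± 0.283 and 1.88 ± 0.317 CPM (mean ± SD, n = 3), had a log2 fold change of -0.65 and an adjusted p of 0.0960, and Ccl25, at 3.18 ± 0.154 and 2.80 ± 0.346 CPM (mean ± SD, n = 3), one of -0.18 and an adjusted p of 0.596 in the same test. Ccl19, Ccl21a, Ccl21b, Ccl21c and Ccl27b are present in several copies in this annotation, and because multi-mapping reads were discarded, their counts of 0 cannot be read as absence.

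Of 23 chemokine receptor genes, 12 were tested, and 0 were higher and 0 were lower at an adjusted p under 0.05 in edgeR. At an unadjusted p under 0.05, 1 was higher and 1 was lower. The likelihood ratio test of edgeR called 1 higher and 1 lower, its exact test 1 higher, and the fit without FGF19 replicate 3 called 1 higher. Some receptors that bind the 10 chemokines are given here although most fall outside the rule for named genes. Cxcr3, the receptor of CXCL9 and CXCL10, was counted 1, 10 and 7 times with vehicle and 7, 6 and 6 times with FGF19, and was not tested. Its counts did not separate the groups in which Cxcl9 differed 39.9-fold. Cxcr6, the receptor of CXCL16, was counted 9, 4 and 7 times and 9, 17 and 3 times and was not tested, and Cxcr2, the receptor of CXCL1, was counted 2, 5 and 11 times and 12, 15 and 6 times with vehicle and FGF19. Ccr1, which binds CCL5, CCL6 and CCL9, had at most 3 counts in 5 of the 6 libraries and 14 in FGF19 replicate 2. Ccr3, which binds CCL5, was counted 1, 6 and 2 times with vehicle and 12, 4 and 6 times with FGF19 and was not tested.

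Ccr2, the receptor of CCL2 on inflammatory monocytes, was counted 21, 17 and 13 times with vehicle and 38, 44 and 32 times with FGF19. Its groups did not overlap, and the log2 fold change was 1.03 with a 95% interval from 0.41 to 1.65 and an adjusted p of 0.0537 in edgeR. Cx3cr1 was counted 18, 33 and 17 times and 32, 27 and 44 times, Cxcr4 31, 12 and 20 times and 25, 34 and 20 times, and both overlapped between the groups. Of the atypical receptors, which bind chemokines without G-protein signalling, Ccbp2 (Ackr2) was at 4.09 ± 0.595 and 4.36 ± 1.64 CPM (mean ± SD, n = 3). Darc (Ackr1) was counted 18, 13 and 19 times with vehicle and 9, 9 and 7 times with FGF19, with a log2 fold change of -1.11 and an adjusted p of 0.0838 in edgeR. It was named after its values were seen.

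**Figure D4:**
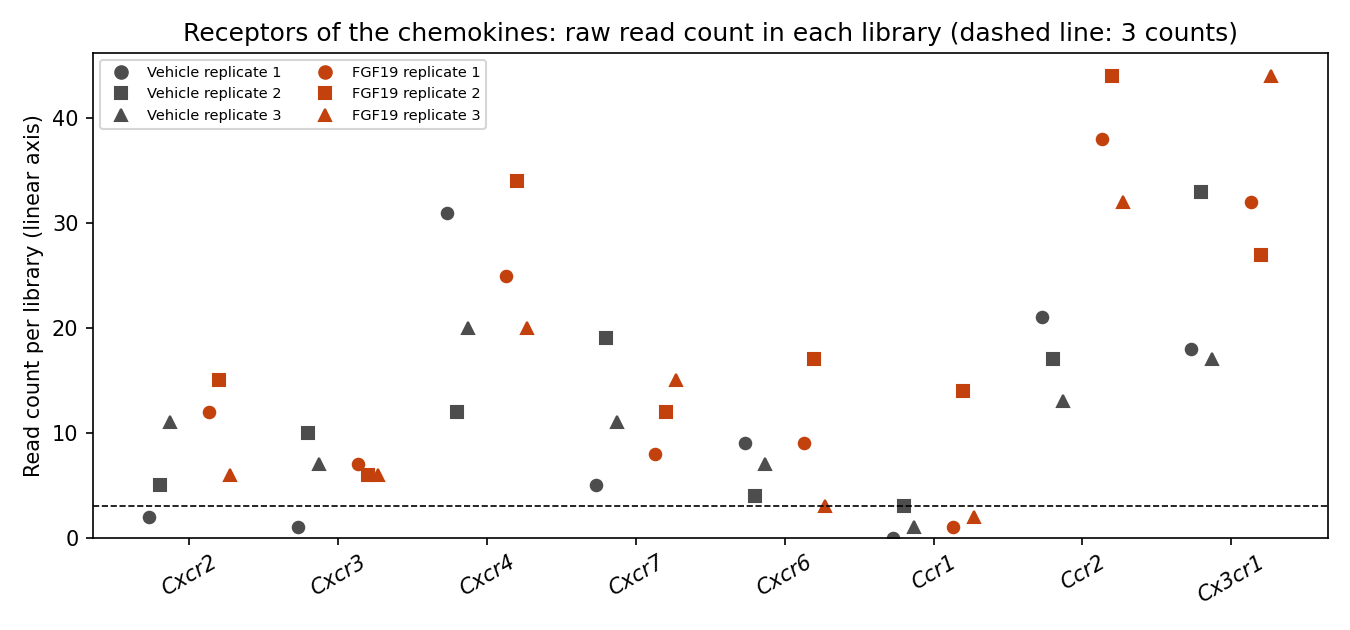
Raw read counts (linear axis) of receptors of the 10 chemokines in each library, with vehicle-treated mice in grey, FGF19-treated mice in orange and a dashed line at 3 counts. Of the 8 receptors shown, only Ccr2 has counts that separate by group, between 13 and 21 with vehicle and between 32 and 44 with FGF19, and those of Cxcr3 do not exceed 10 in any library. The 8 are a selection, and Darc, whose counts also separate by group, is not drawn.

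DPP4, a peptidase that trims and inactivates several chemokines including CXCL12 and CXCL10, was the most highly expressed of the 5 processing genes examined. Dpp4 was at 118.8 ± 0.612 CPM (mean ± SD, n = 3) with vehicle and 96.7 ± 10.5 CPM (mean ± SD, n = 3) with FGF19. The treated mice all lay under the vehicle-treated mice, with a log2 fold change of -0.30 and an adjusted p of 0.0986 in edgeR. Of the 5 genes 4 were tested, and none passed at an adjusted p under 0.05, with 0 higher and 1 lower at an unadjusted p under 0.05. The edgeR likelihood ratio test, exact test and the other alternatives gave Dpp4 an adjusted p between 0.0775 and 0.261.

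Among 20 regulators of chemokine genes, 17 were tested and 2 were higher at an adjusted p under 0.05 in edgeR. Irf7, an interferon regulatory factor, rose from 35.3 ± 4.30 CPM (mean ± SD, n = 3) to 59.9 ± 1.40 CPM (mean ± SD, n = 3), a log2 fold change of 0.76 (adjusted p = 0.00254, edgeR). Tnfrsf1a, the receptor of TNF, was at 85.4 ± 3.20 and 107 ± 9.33 CPM (mean ± SD, n = 3) with an adjusted p of 0.0599, and Zfp36, whose product speeds the decay of chemokine and cytokine mRNAs, was at 178 ± 46.3 and 116 ± 19.6 CPM (mean ± SD, n = 3), where edgeR gave an adjusted p of 0.0761. Jak1, a kinase of interferon receptors, was at 109 ± 3.78 and 108 ± 17.3 CPM (mean ± SD, n = 3). Of the 4 cytokine genes on this list, Ifng had 0 counts in 5 libraries and 2 in FGF19 replicate 2, and Tnf had at most 4 in any library. The interleukin-1 genes had more, with 63, 35 and 25 counts against 53, 57 and 70 for Il1a and 23, 24 and 9 against 20, 25 and 17 for Il1b, and both overlapped between the groups.

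Markers of the cells that could carry or attract these chemokines are given beside the changes of Cxcl9, Ccl5 and Ccl9. Of 10 Kupffer cell markers, all 10 were tested and 1 was higher, Marco, a scavenger receptor gene, with a log2 fold change of 2.29 (adjusted p = 0.00105, edgeR). At an unadjusted p under 0.05, 2 were higher and 1 was lower. Their summed level was between 298 and 358 CPM with vehicle and between 286 and 355 CPM with FGF19. Of 10 monocyte and neutrophil markers, 9 had a row, 4 were tested and 1 was higher, S100a9, with a log2 fold change of 2.16 (adjusted p = 0.0292, edgeR). All 4 had positive log2 fold changes, and at an unadjusted p under 0.05 there were 3 higher and 0 lower. Their summed level was between 5.0 and 7.84 CPM with vehicle and between 10.8 and 17.8 CPM with FGF19, which did not overlap. Of 10 T and NK cell markers, 9 had a row, 4 were tested and none passed an adjusted p under 0.05 in edgeR, with 1 higher at an unadjusted p under 0.05. Their summed level was between 2.81 and 5.14 CPM with vehicle and between 4.66 and 5.70 CPM with FGF19. No marker with a row in these 3 lists was at 0 in all libraries, and the part of these cells in the changes of Cxcl9, Ccl5 and Ccl9 was not tested.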

How the data were processed

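Liver RNA of 3 vehicle-treated and 3 FGF19-treated mice was sequenced on an Illumina HiSeq2000. Per the labels and the file headers, the authors processed reads with Trimmomatic 0.36, aligned them with STAR to mm9 and assigned them to exons using featureCounts 1.5.2, without strand, with mates counted separately and without reads aligned to several places. The STAR version differs between the labels (2.5.3a) and the paper. The deposited values are raw counts. The merged exon length given by the authors for each gene served for RPKM. A deposited table of the authors' own comparison (log2 fold changes, mean log2 CPM, p-values and FDR) was not used.

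Of 23284 genes, 12559 were kept by filterByExpr (minimum count of 10) and compared with edgeR 4.0.16 in R 4.3.3, using TMM scaling, the quasi-likelihood test without covariates and Benjamini-Hochberg adjustment. CPM used total counts times TMM factors, between 0.964 and 1.03. Standard errors and 95% intervals were derived from the fold change and the F statistic. The alternatives were DESeq2 1.42.0, limma-voom (limma 3.58.1), other scalings, filters and edgeR tests, the replicate number as a block, and each library left out. The fits were tested on simulated data. Groups and replicate numbers came from the sample titles. All members were named, as were genes of the ligand, receptor, processing and regulator lists with an adjusted p under 0.05 or among the 3 highest of their list. Members, lists and motifs were chosen with earlier results of these data known. Some genes of the receptor and regulator lists are counted in the list totals but are not reported here by name.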

Additional observations from a re-analysis of the deposited data

How the results depend on the processing

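Cxcl9, Ccl5 and Ccl9 passed an adjusted p under 0.05 in every alternative in which they were tested, with log2 fold changes of 4.93 to 5.64, 4.17 to 4.35 and 0.64 to 0.81. The number of lower members went from 1 to 0 with the replicate number as a block and was between 0 and 1 with each library left out. The number of other ligands that were higher went from 2 to 1 with no TMM scaling, to 0 with at least 1 CPM in every library, which tests fewer genes, and to between 1 and 2 with each library left out. Of these ligands 1 was lower with the likelihood ratio test and with the exact test. Among receptors 1 was higher with the likelihood ratio test and with the exact test, 1 was lower with the likelihood ratio test, and between 0 and 1 were higher with each library left out. Of the named genes that did not pass, 6 changed sign when a library was left out, with log2 fold changes between -0.20 and 0.29 for Cxcl1, -0.28 and 0.64 for Cxcl10, -0.034 and 0.50 for Ccl6, -0.33 and 0.11 for Cx3cl1, -0.26 and 0.27 for Ccbp2 and -0.11 and 0.11 for Jak1. The cause of these shifts was not tested. With the replicate block Cxcl12 had an adjusted p of 0.0558 and a log2 fold change of -0.44. Same-numbered libraries did not deviate together (correlations of -0.06, -0.26 and -0.23 for numbers 1, 2 and 3), so they share only a number, and no library correlated best with its own number. Tnfrsf1a passed in 5 and Zfp36 in 4 of 14 alternatives. Depth limits Ccl2, Cxcr3 and Ifng, which had too few counts to be tested.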

Other observations

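Vehicle replicate 1 had the lowest level of its group in 8 of the 10 genes, all except Cxcl12 and Cx3cl1, with libraries scaled by TMM or by total count. FGF19 replicate 3 had the lowest level of its group in 7 of the 10 genes with TMM scaling and in 8 with total counts. The remaining genes with TMM scaling were Cxcl1 and Ccl6, lowest in FGF19 replicate 1, and Cx3cl1, lowest in FGF19 replicate 2. Some of these orders rest on small differences in low counts, such as 2, 2 and 5 for Ccl2 and 13, 14 and 16 for Ccl5 with vehicle, and no test of these orders was made.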
